A study of Mus musculus with 2 samples.

Results

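Granular keratinocytes were taken as segmented cells with at least 20 decoded transcripts, of which at least 5 came from the cornified layer markers Lce1m, Hal, Flg2, Alox12b and Sdr9c7 together and fewer than 5 from the lipid genes Fa2h, Cers4, Elovl3, Elovl4 and Cidea. This rule gave 4284 cells, 1945 in the Utx-cKO section and 2339 in the WT section, of 70658 cells with at least 20 transcripts and 92679 segmented cells in all. The cells were chosen by their measured counts of these 10 genes, so the levels of the 10 genes are given as a description. The 2 sections were of whole skin from female B6/129 mice, imaged by Xenium, which decodes single RNA molecules in place, with a custom panel of 480 genes on 5 µm sections of fixed, paraffin-embedded tissue. In Utx-cKO skin, Cre expressed from the Krt14 promoter deleted Kdm6a (Utx), a demethylase of histone lysines, in tissues that express keratin-14. The other section was of WT control skin. The deletion thus reaches basal keratinocytes, their descendants and the other keratin-14 positive epithelia, and not the dermis or immune cells. No treatment was given, and the sources used here do not state ages, body sites, the number of animals per section or the alleles of the control. With 1 section per group there were no replicates and no difference was tested. Intervals are exact, at 95%, and cover only the error of counting. Where given, they follow a value in brackets as a range, and many values are given without one.

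Granular keratinocytes form the last living layer of the epidermis, below the dead cornified cells. They hold keratohyalin granules with filaggrin-like proteins and loricrin, and lamellar granules whose lipids are secreted to seal the barrier. Transglutaminases cross-link loricrin, involucrin and small proline-rich proteins into the cornified envelope, to which lipoxygenase products attach ceramides. In haired mouse skin the living epidermis is thin, so granular, spinous and basal cells lie close together.

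The Utx-cKO section held 52308 segmented cells and the WT section 40371. Gene transcripts with a quality score of at least 20 numbered 2875112 and 3540184, of which 84.9% in Utx-cKO and 74.7% in WT lay in cells. Granular keratinocytes held 221708 transcripts in Utx-cKO and 311543 in WT, with medians of 105 and 122 per cell. Negative control probes together had 76 counts in Utx-cKO members and 57 in WT members, or 343 and 183 CPM (counts per 1000000 gene transcripts of the members), and the highest single probe had 207 and 80.2 CPM. The summed background was thus higher in Utx-cKO members on the scale used below. The highest probe gave 46 of the 76 counts in Utx-cKO and 25 of the 57 in WT, and the median probe 1 in both. The part of background in the results was not tested. The tissue of a section lay in 4 strips, and the sources used here do not tie strips to animals or sites. Strips are not replicates, and their values show the spread within a section. No cell ID of a member occurred in both sections, and 2 of all segmented cells shared one.

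The RefSeq promoters of genes that mark or describe these cells are shown, since members were found by transcripts of Flg2 and Lce1m, Lor marks the layer without being part of the rule, and Sprr2a1 stands for near-identical copies that were higher in Utx-cKO. Each is the 250 bases before the annotated start, from 5′ to 3′, on build GRCm38.p6. Capitals mark matches on either strand to TATAAA, the core promoter box, to TGANTCA, a site of the AP-1 type, or to AACNNGTT, a site of the grainyhead type.
Flg2, chr3:93197023-93197272, plus strand: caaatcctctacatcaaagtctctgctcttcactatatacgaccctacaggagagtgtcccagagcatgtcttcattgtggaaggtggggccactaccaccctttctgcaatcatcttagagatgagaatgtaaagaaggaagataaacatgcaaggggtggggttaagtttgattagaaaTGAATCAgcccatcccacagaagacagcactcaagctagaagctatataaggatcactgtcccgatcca
Lce1m, chr3:93019062-93019311, minus strand: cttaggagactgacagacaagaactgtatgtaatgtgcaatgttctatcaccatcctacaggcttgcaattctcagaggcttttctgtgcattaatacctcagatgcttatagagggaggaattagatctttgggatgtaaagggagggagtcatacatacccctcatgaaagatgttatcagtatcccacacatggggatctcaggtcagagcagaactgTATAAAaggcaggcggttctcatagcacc
Lor, chr3:92083143-92083392, minus strand: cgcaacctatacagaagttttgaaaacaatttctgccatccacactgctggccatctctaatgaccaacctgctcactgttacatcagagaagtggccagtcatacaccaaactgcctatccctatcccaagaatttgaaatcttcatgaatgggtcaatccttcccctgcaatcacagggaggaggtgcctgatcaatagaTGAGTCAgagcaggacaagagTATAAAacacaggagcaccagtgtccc
Sprr2a1, chr3:92215585-92215834, plus strand: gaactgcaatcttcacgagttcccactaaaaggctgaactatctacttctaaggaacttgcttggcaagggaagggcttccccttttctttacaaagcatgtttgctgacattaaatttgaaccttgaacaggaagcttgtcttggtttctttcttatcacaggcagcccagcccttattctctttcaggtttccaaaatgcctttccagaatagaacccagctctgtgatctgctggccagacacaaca
TGANTCA occurred in the Flg2 window 69 bases and in the Lor window 48 bases before the start. TATAAA occurred 27 bases before the start of Lor and 29 bases before that of Lce1m. Of all 32851 promoter windows in the table, 12.4% held TATAAA, 6.75% TGANTCA and 3.64% AACNNGTT. The Sprr2a1 window held none of these motifs. All 300 bases of the Sprr2a1 entry, which runs past the start, were equal to those of Sprr2a2, and the 272 bases that overlap Sprr2a3 were equal too. Counts of these genes may therefore be shared among the copies, depending on the probes, whose sequences were not used here. Of 19 cornified envelope genes with an entry, 8 had a TGANTCA match, as did 9 of 14 small proline-rich genes, 0 of 7 basal genes and 1 of 22 barrier lipid genes, each gene counted once over all its starts. In the same order of sets, TATAAA matched in 8, 10, 1 and 1 genes and AACNNGTT in 1, 0, 0 and 0. CACCC, also searched, matched in 14, 5, 6 and 13 genes and in 52.0% of all windows. Counts per gene over all starts are not on the scale of shares of single windows. A match is a description of letters, and no binding was measured.

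Flg2, which encodes a filaggrin-like keratohyalin protein, carried the rule. It made up 61.7% of marker transcripts in Utx-cKO and 63.6% in WT, and 99.6% and 99.5% of members held at least 1 transcript of it. Flg2 had 89476, 44441, 48438 and 58235 CPM in the 4 Utx-cKO strips, against 52976, 45698, 46394 and 92436 CPM in the 4 WT strips. The highest strip of each section lay far above its other 3, and both were the strips with the fewest transcripts per member, with medians of 66 in Utx-cKO and 70.5 in WT. Hal had 14446, 15782, 14473 and 14770 CPM in the 4 Utx-cKO strips, against 13822, 13724, 12595 and 15471 CPM in the 4 WT strips. Hal, the enzyme that converts histidine to urocanic acid, thus overlapped between sections, and 73.2% of Utx-cKO and 75.1% of WT members held it. Lce1m, a late cornified envelope protein, had 12598 CPM in Utx-cKO members and 11356 CPM in WT members, and 54.0% and 50.6% of members held it. Sdr9c7, a dehydrogenase of the corneocyte lipid envelope, had 3626 CPM in Utx-cKO members and 2998 CPM in WT members. Alox12b, the lipoxygenase that starts the oxidation of barrier ceramides, had 1538 CPM in Utx-cKO members and 1457 CPM in WT members. The log2 ratios of Utx-cKO over WT for the 5 markers lay between 0.04 and 0.27. Among cells in none of the keratinocyte or lipid-rich sets, 3.97% of Utx-cKO and 2.84% of WT cells held Flg2, at median depths of 39 and 53 transcripts.

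The median member held 8 marker transcripts in Utx-cKO and 9 in WT, and the highest 46 and 44. Of the members, 4.16% in Utx-cKO and 3.93% in WT held all 5 markers, and 10.9% and 9.02% held 1 of them. Just inside the threshold, 330 Utx-cKO and 392 WT cells had exactly 5 marker transcripts, with 15934 and 14212 CPM of Lor. Just outside, 397 and 423 cells had 4, with 14236 and 12724 CPM of Lor, so the threshold cut through a continuous range. The limit on lipid genes left out 43 Utx-cKO and 52 WT cells. Of these lipid genes, Elovl4, an elongase of very long fatty acids, had 7591 CPM in Utx-cKO members and 6429 CPM in WT members, within its limit per cell, and the other 4 had between 12 and 38 counts over the members of a section.

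The label was set against genes that the rule did not use. Lor, which encodes loricrin, had 22733 CPM in Utx-cKO and 21946 CPM in WT members, against 1609 CPM in Utx-cKO and 1917 CPM in WT basal and 10238 CPM in Utx-cKO and 9958 CPM in WT spinous keratinocytes. Members also held transcripts of lower layers. At least 5 basal transcripts (Krt5, Krt15, Col17a1, Itga6 and Dst) occurred in 38.8% of Utx-cKO and 59.8% of WT members, and at least 5 spinous transcripts (Krt1 and Krt77) in 75.9% and 79.5%. The 6 basal markers, all detected, summed to 53449 CPM in Utx-cKO members (strips from 32077 to 64056) and 96138 CPM in WT members (strips from 60220 to 101789). The 4 upper follicle markers summed to 17821 and 11077 CPM. For other cell types, members were set against the cells in none of the sets. Fibroblast markers summed to 469 CPM in Utx-cKO and 732 CPM in WT members, against 32273 and 34825 CPM in those cells, and macrophage and dendritic cell markers to 419 and 299 CPM, against 12686 and 14917 CPM. Endothelial markers summed to 307 and 167 CPM, against 4554 and 4694 CPM, mast cell markers to 158 and 103 CPM, against 2479 and 1471 CPM, and melanocyte markers to 198 and 173 CPM, against 801 and 651 CPM. Of these types, T cell markers were nearest to that level, at 735 CPM in Utx-cKO and 1021 CPM in WT members, against 1640 and 1243 CPM. Sebocyte markers, the 5 lipid genes of the rule and Scd1, summed to 11411 CPM in Utx-cKO and 10210.5 CPM in WT members. In the cells in none of the sets they summed to 12497 and 17834.5 CPM, and the rule limits the 5 lipid genes in both. No measured marker was at 0, and the panel held no muscle marker of the list. Whether transcripts of neighbouring cells entered the outlines was not tested.

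Against spinous keratinocytes, the cells with at least 5 Krt1 and Krt77 transcripts that exceed Krt5 and Krt15, 10 of 204 genes with enough counts (4.9%) were at least 2 times higher in granular keratinocytes of both sections, and 0 (0%) were at least 2 times lower in both. The spinous set held 1280 Utx-cKO and 754 WT cells, with medians of 64 and 62 transcripts. It was chosen by Krt1 and Krt77 among cells with fewer than 5 transcripts of the rule's 5 markers. The 2 sets were thus split by the rule's own counts, and the comparison is only a description of them.

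Tgm1, the transglutaminase that cross-links the cornified envelope, stood first, with 3459.5 CPM in granular and 638 CPM in spinous keratinocytes of Utx-cKO skin (log2 ratio 2.43), and 3162 and 886 CPM in those of WT skin (1.82). Aloxe3, the lipoxygenase that acts after Alox12b, had 4447 CPM in granular and 1067 CPM in spinous keratinocytes of Utx-cKO skin (log2 ratio 2.05), and 4930.3 and 1716 CPM in those of WT skin (1.51). The third by the smaller ratio of the 2 sections was Sprr1a, an envelope precursor (2.51 in Utx-cKO and 1.37 in WT skin). Ereg, a ligand of the epidermal growth factor receptor, had log2 ratios of 1.31 in Utx-cKO and 1.55 in WT skin. Hrnr, the filaggrin-like hornerin, had 1.28 in Utx-cKO and 1.33 in WT skin, and Asprv1, the protease that processes profilaggrin, 1.25 in Utx-cKO and 1.29 in WT skin. The others of the 10 were Il18, a cytokine of the interleukin-1 family (1.64 in Utx-cKO and 1.23 in WT skin), Id4, an inhibitor of helix-loop-helix factors (1.60 in Utx-cKO and 1.20 in WT skin), Lor (1.15 in Utx-cKO and 1.14 in WT skin) and Crct1, a gene of the epidermal differentiation complex (1.25 in Utx-cKO and 1.02 in WT skin).

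**Figure D1:**
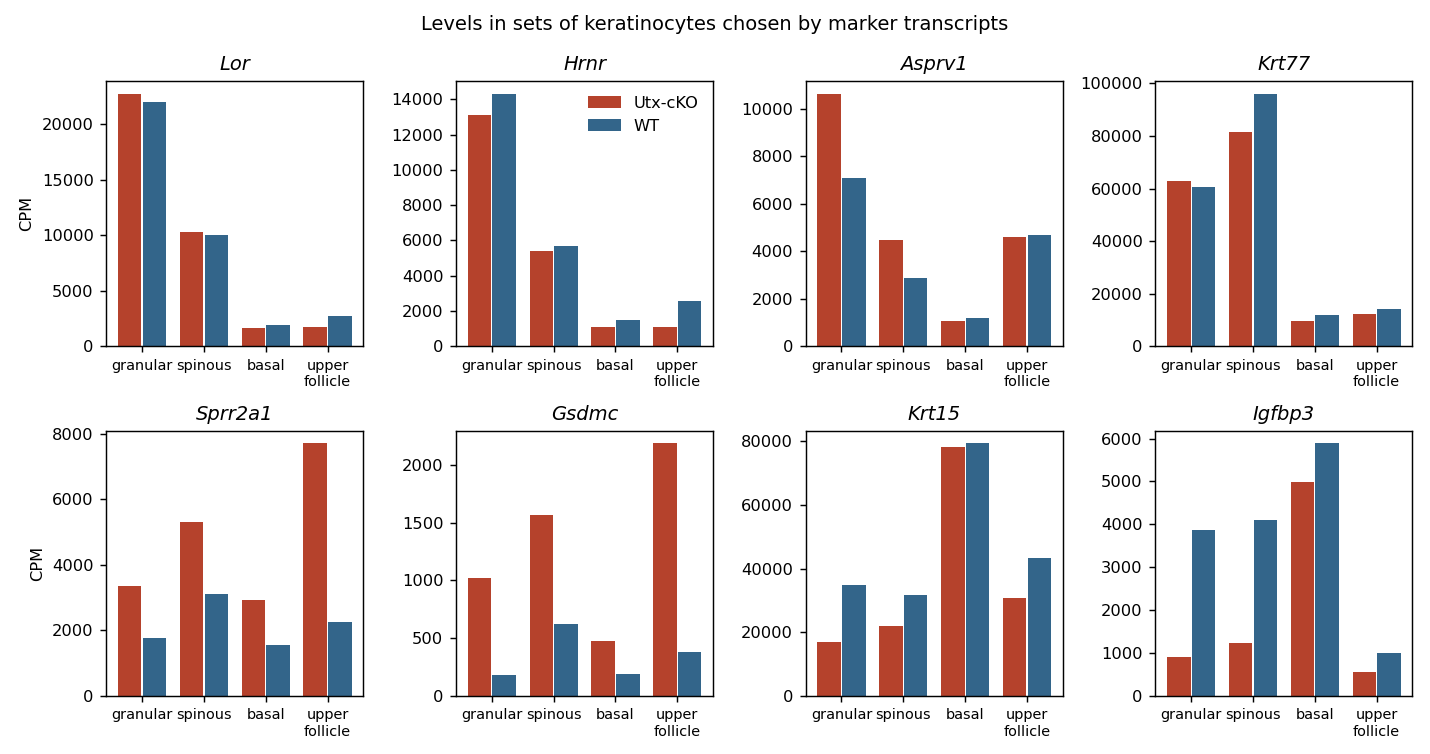
Bars give the level of 8 genes in CPM (counts scaled to the panel total of the set) in granular, spinous, basal and upper follicle keratinocytes of the Utx-cKO (left bar) and WT (right bar) sections. Lor and Hrnr stand highest in granular keratinocytes of both sections, Sprr2a1 and Gsdmc are higher in Utx-cKO in each set, and Igfbp3 is lower in Utx-cKO granular keratinocytes (898 against 3874 CPM).

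Other sets lay further away. Against upper follicle keratinocytes, 27 of 264 genes (10.2%) were at least 2 times higher and 53 (20.1%) at least 2 times lower in granular keratinocytes of both sections. Krt1 had 28957 CPM in granular and 2589.7 CPM in upper follicle keratinocytes of Utx-cKO skin, and 17262 and 1053 CPM in those of WT skin. Against basal keratinocytes 42 of 348 genes (12.1%) were higher and 117 (33.6%) lower, and against lipid-rich cells, left out by the lipid genes, 67 of 256 (26.2%) were higher and 52 (20.3%) lower.

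Among members, a gradient ran with the number of marker transcripts. Cells with 5 to 9, 10 to 19 and 20 to 39 marker transcripts numbered 1193, 636 and 115 in Utx-cKO and 1338, 783 and 211 in WT, and only 1 and 7 cells had 40 or more, which were not used. Median depth was higher with more markers, at 91, 122 and 172 transcripts in Utx-cKO and 105, 138 and 190 in WT, so levels here are scaled to the transcripts other than the 5 markers. Of 188 genes compared, 10 (5.32%) were at least 2 times higher in the top bin than in the lowest in both sections, and 27 (14.4%) at least 2 times lower. The bins were made from the rule's own counts, so these are descriptions.

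The 8 genes named as highest with more marker transcripts were Sod3, Ereg, Il18, Aloxe3, Ugcg, Tgm1, Elovl6 and Abca12. Tgm1 had 2625, 4568 and 7582 CPM in Utx-cKO members and 1960.2, 3731 and 7945 CPM in WT members from the lowest to the top bin. Aloxe3 had 2972, 6322 and 10164 CPM in Utx-cKO members and 2993, 6034 and 11699 CPM in WT members. In both genes each step was upward in both sections. Ugcg, the glucosylceramide synthase, had a log2 ratio of top over lowest bin of 1.59 in Utx-cKO and 1.72 in WT, Abca12, the lipid transporter of lamellar granules, 1.18 in Utx-cKO and 1.65 in WT, and the elongase Elovl6 1.23 in Utx-cKO and 1.47 in WT. Sod3, an extracellular superoxide dismutase, had the highest smaller ratio (2.11 in Utx-cKO and 2.20 in WT), followed by Ereg (2.07 in Utx-cKO and 1.91 in WT) and Il18 (1.89 in Utx-cKO and 1.98 in WT).

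Genes of the lower layers were lower with more marker transcripts. Krt5, the basal keratin, had 20830.5, 11720.4 and 5274 CPM in Utx-cKO members and 34265, 20394 and 8548 CPM in WT members. Dst, which encodes an anchor of hemidesmosomes, had 9235, 5237 and 2143 CPM in Utx-cKO members and 21311, 14418 and 5891 CPM in WT members. Within each bin Dst was lower in Utx-cKO than in WT, and Krt5 too. Col17a1, the hemidesmosome collagen, had a log2 ratio of top over lowest bin of -1.84 in Utx-cKO and -1.97 in WT, Dsg3, the desmoglein of the lower layers, -2.01 in Utx-cKO and -2.67 in WT, and Igfbp3, which binds insulin-like growth factors, -2.00 in Utx-cKO and -1.79 in WT. Ccnd1, a cyclin that drives entry into division (-2.18 in Utx-cKO and -2.61 in WT), Thy1, a surface protein best known from T cells and fibroblasts (-2.55 in Utx-cKO and -2.34 in WT), and Krt79, a keratin of the upper follicle (-2.74 in Utx-cKO and -2.08 in WT), were lower as well.

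**Figure D2:**
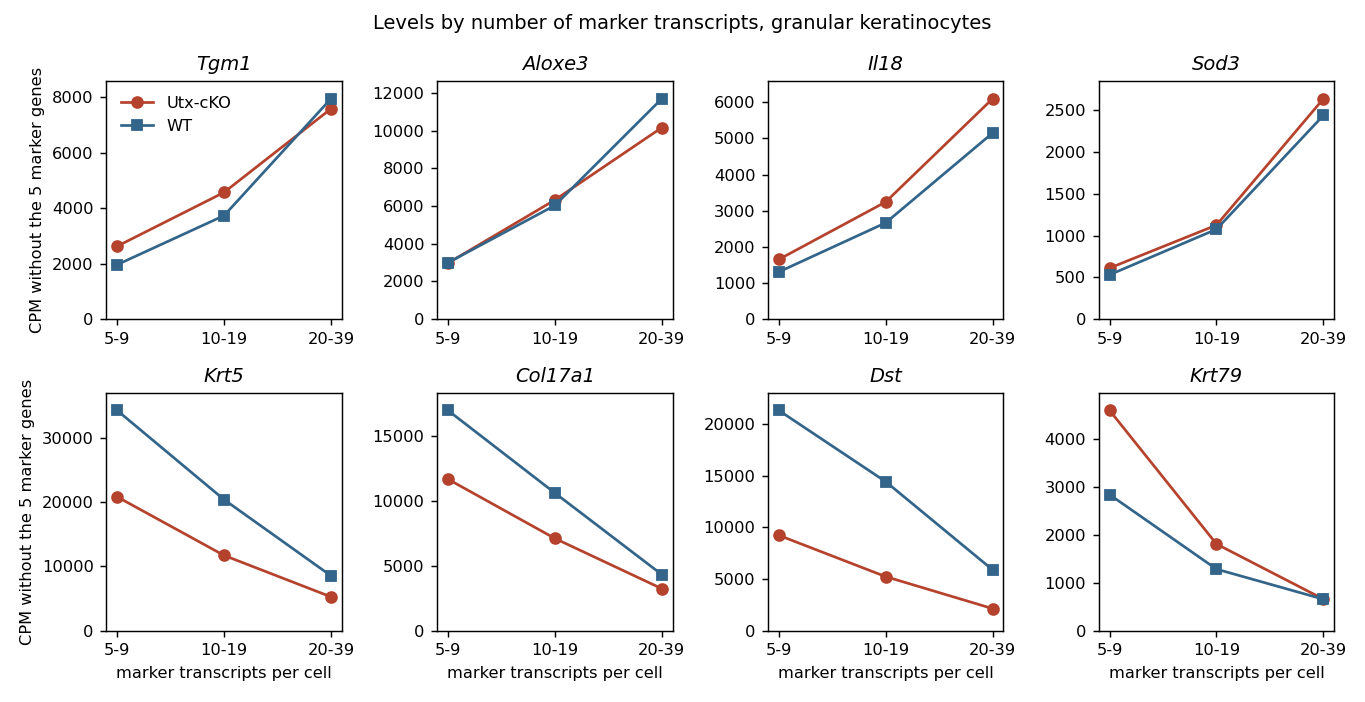
Each panel gives the level of 1 gene, in CPM of the transcripts other than the 5 markers, in granular keratinocytes with 5 to 9, 10 to 19 and 20 to 39 marker transcripts, as circles for Utx-cKO and squares for WT. Tgm1, Aloxe3, Il18 and Sod3 step upward and Krt5, Col17a1, Dst and Krt79 downward in both sections, with Dst at 2143 CPM in Utx-cKO and 5891 CPM in WT in the top bin.

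The study's comparison asks what differs without Kdm6a. Kdm6a transcripts were still counted in Utx-cKO members. Kdm6a had 1208, 2445, 3124 and 2036 CPM in the 4 Utx-cKO strips, against 2277, 2269.8, 2898 and 783 CPM in the 4 WT strips. The strips overlapped, and the pooled level was 2472 CPM in Utx-cKO members and 2429.8 CPM in WT members, a log2 ratio of 0.02 (-0.14 to 0.19). The sources used here do not say whether the probes target the deleted exons, so this level does not check the label. With each member thinned to 20 transcripts the log2 ratio was 0.60. The paralogue Kdm6b had 2119.9 CPM in Utx-cKO members and 1611 CPM in WT members (0.40, 0.21 to 0.58), and Kmt2a, a histone methyltransferase, 1150.2 CPM in Utx-cKO members and 1550.3 CPM in WT members (-0.43, -0.66 to -0.21). Kmt2a passed 1.5-fold in 4 of 24 alternatives, at -0.67 without Utx-cKO strip 3, -0.66 as mean counts per cell, -0.62 over the nucleus alone and -2.41 in the few members over 20 µm from a basal keratinocyte.

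Between sections, 271 genes with at least 100 counts over the members of both sections were compared, leaving out the 10 genes of the rule. This minimum lets a gene in through the section where it is high, and 203 genes were under it. At least 1.5 times higher in Utx-cKO were 24 genes (8.86%) and at least 1.5 times lower 33 (12.2%), with a median log2 ratio of -0.02 over all 271. All strips of one section lay on one side of all strips of the other in 19 genes (7.01%), 6 with Utx-cKO above WT and 13 below. These 19 held 1 of the 24 higher and 10 of the 33 lower genes. The balance rests on scale, strips and the minimum: 14 genes were higher and 56 lower without Utx-cKO strip 3, and 12 and 62 as mean counts per cell, where Utx-cKO members had fewer transcripts. It turned to 29 higher and 22 lower without WT strip 3, and to 47 and 41 at a minimum of 50 counts.

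Gsdmc, a gasdermin, of a family whose cleaved forms open pores in membranes, was the gene furthest above WT. Gsdmc had 1099, 1984, 300.1 and 557 CPM in the 4 Utx-cKO strips, against 125, 328, 103 and 392 CPM in the 4 WT strips. The pooled level was 5.57 times higher in Utx-cKO, at 1019 against 183 CPM (log2 ratio 2.48, 2.05 to 2.92, from 226 and 57 counts). Utx-cKO strip 3 lay below WT strips 2 and 4, so the strips overlapped, and the log2 ratio was 1.43 without Utx-cKO strip 2, 1.81 with markers at 10% of transcripts and 1.71 thinned to 20 transcripts. The gene was not particular to granular cells, with 1562 CPM in Utx-cKO and 622 CPM in WT spinous and 2187 CPM in Utx-cKO and 382 CPM in WT upper follicle keratinocytes. In members over 50 µm from an upper follicle keratinocyte its log2 ratio was 2.37, and in those over 20 µm from a basal keratinocyte 0.97.

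Small proline-rich genes, precursors that transglutaminases join into the cornified envelope, were higher together. All 5 of the family with enough counts, of 11 on the panel, were at least 1.5 times higher in Utx-cKO, against 8.86% of all 271 genes. Their median log2 ratio was 0.98, against -0.02 over all genes compared. Sprr2a1, Sprr2a2 and Sprr2a3, whose start regions share the letters given above, cannot be counted as independent. Sprr2a1 had 2417, 4723, 1541 and 4129 CPM in the 4 Utx-cKO strips, against 1541, 2808, 1177 and 2399 CPM in the 4 WT strips. Sprr2a2 had 1428, 3443, 682 and 2977 CPM in the 4 Utx-cKO strips, against 725, 2427, 695 and 832 CPM in the 4 WT strips. In both, strips 2 and 4 were the high ones in Utx-cKO and the sections overlapped. The pooled log2 ratios were 0.93 (0.76 to 1.09) for Sprr2a1, 0.99 (0.79 to 1.19) for Sprr2a2, 1.32 (0.95 to 1.69) for Sprr2a3, 0.98 (0.48 to 1.48) for Sprr2b and 0.73 (0.54 to 0.93) for Sprr1a. Without Utx-cKO strip 2, Sprr2a1 had 0.56 and Sprr2a2 0.50, both under 1.5-fold, and Sprr2a2 had 1.65 without WT strip 2. Where markers had to make up at least 10% of a member's transcripts, Sprr2a1 had 0.54, Sprr2a2 0.20 and Sprr2b -0.10, and the list a median of 0.54. Sprr2a1 had 0.18 in members over 20 µm from a basal keratinocyte. Sprr2a1 was also higher outside the members, at 7707 CPM in Utx-cKO and 2264 CPM in WT upper follicle keratinocytes. Its log2 ratio was 0.77 in spinous and 0.92 in basal keratinocytes, 0.48 in lipid-rich cells and 0.88 in the cells in none of the sets. Sprr2a2 had 1.46, 1.16, 0.91 and 0.94 in the same order. The difference was thus not particular to granular keratinocytes.

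Krt1, the main keratin of spinous cells, was higher too. Krt1 had 30319.7, 36774, 20761 and 28292 CPM in the 4 Utx-cKO strips, against 15770.5, 25703, 13575 and 15079.6 CPM in the 4 WT strips. Of the 4 Utx-cKO strips, 3 lay above every WT strip, and the pooled log2 ratio was 0.75 (0.69 to 0.80). Krt1 was also higher in spinous keratinocytes, a set chosen partly by it, at 56713.3 CPM in Utx-cKO and 38605.9 CPM in WT. Basal keratinocytes had 6460.9 and 4425.1 CPM, and upper follicle keratinocytes 2589.7 and 1053 CPM. The cells in none of the sets had 714.2 and 260.2 CPM. Lipid-rich cells went the other way, at 1024.5 and 1664 CPM. The higher level was thus not particular to granular keratinocytes. The 4 spinous markers, Krt1 among them, summed to 172384 CPM in Utx-cKO members (strips from 135191 to 210865) and 146811 CPM in WT members (strips from 125322 to 186438), and 16.9% of the nearest cells of Utx-cKO members were spinous, against 9.20% in WT. Their part in the result was not tested. Other higher genes had few counts or varied among strips. Dhrs9, a retinol dehydrogenase, had 284 CPM in Utx-cKO members and 160.5 CPM in WT members (0.82, 0.27 to 1.39), 0.51 without WT strip 2, 0.35 with markers at 10% of transcripts and 0.27 thinned to 20 transcripts. Ccl20, a chemokine for cells that bear Ccr6, had 487 CPM in Utx-cKO members and 189 CPM in WT members (1.36, 0.89 to 1.85), 0.32 without Utx-cKO strip 3 and 0.35 over 20 µm from a basal keratinocyte. The matrix proteins Postn (1.05, 0.81 to 1.29) and Tnc (0.84, 0.29 to 1.40) were higher, with 1637 CPM in Utx-cKO members and 793 CPM in WT members for Postn. Both stood highest in the basal set, with 27414 CPM in Utx-cKO and 23448 CPM in WT for Postn. The cells in none of the sets had 13764 and 15442 CPM of Postn, and spinous keratinocytes 3189 and 830 CPM. In members the Postn ratio rested on 1 strip, and was -0.04 without Utx-cKO strip 2 and -0.06 with markers at 10% of transcripts. The 4 fibroblast markers on the panel, none at 0, summed to 469 CPM in Utx-cKO members (strips from 230.4 to 914) and 732 CPM in WT members (strips from 380.5 to 1098). The part of fibroblasts and of basal keratinocytes in the levels of matrix genes was not tested. Gch1, the first enzyme of tetrahydrobiopterin synthesis, had 0.99 (0.42 to 1.57), with 2.33 without WT strip 1 and 0.51 without WT strip 3. Pglyrp3, a peptidoglycan recognition protein, had 0.86 (0.50 to 1.23), and 0.46 with markers at 10% and 0.42 over 20 µm from a basal keratinocyte, both under 1.5-fold. Epcam, an adhesion protein chosen here after its values were seen, was the 1 higher gene with every Utx-cKO strip above every WT strip, at 4174, 5235, 6043 and 3957 CPM in Utx-cKO and 3263, 2479.7, 3348 and 2987 CPM in WT strips (0.73, 0.60 to 0.85).

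**Figure D3:**
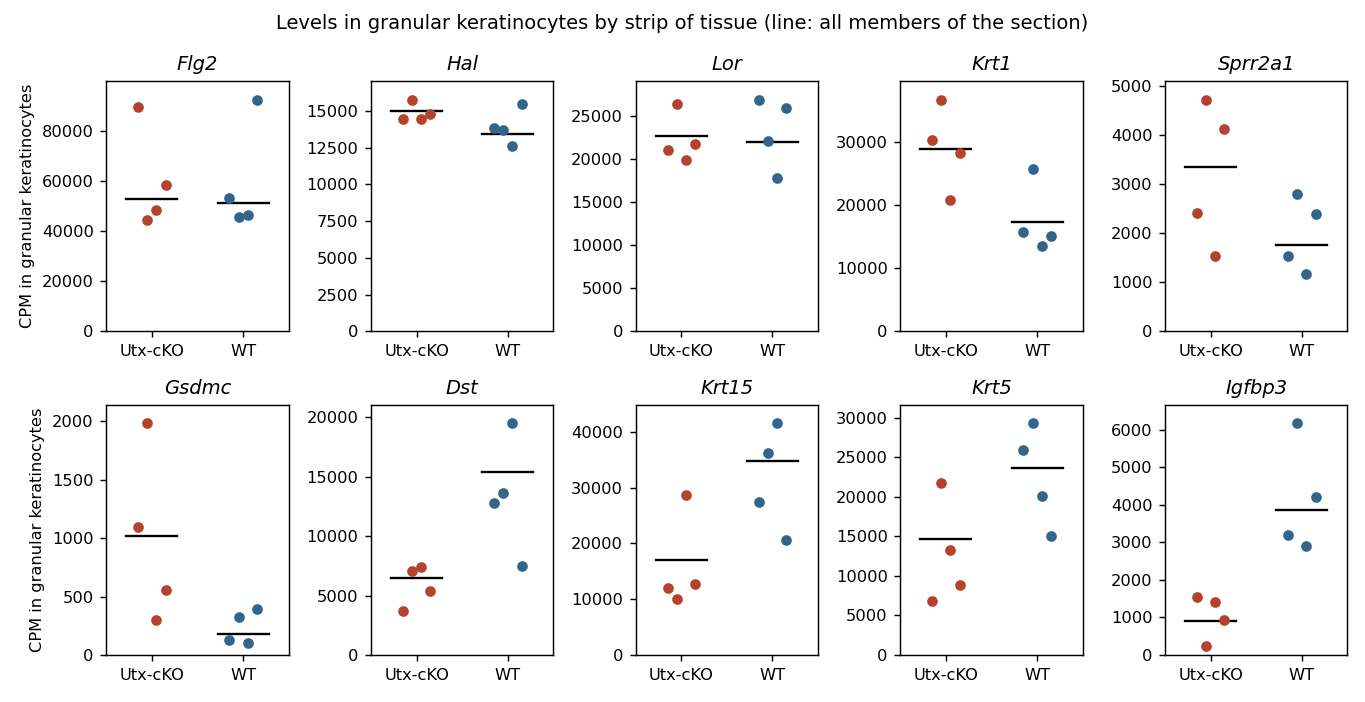
Points give the level of 10 genes, in CPM, in granular keratinocytes of each of the 4 strips of the Utx-cKO section (left) and the WT section (right), and lines the level over all members of a section. Flg2, Hal and Lor overlap between sections, Gsdmc is high in 2 of the Utx-cKO strips, and all 4 Utx-cKO strips of Dst and Igfbp3 lie below all WT strips.

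Igfbp3 was the gene furthest below WT. Igfbp3 had 1538, 230.4, 1419 and 941 CPM in the 4 Utx-cKO strips, against 3206, 6179.6, 2898 and 4211 CPM in the 4 WT strips. All Utx-cKO strips lay below all WT strips, and the pooled level was 4.32 times lower in Utx-cKO, at 898 against 3874 CPM (log2 ratio -2.11, -2.33 to -1.89). Spinous keratinocytes had 1232 CPM in Utx-cKO and 4093 CPM in WT, and basal keratinocytes 4981 CPM in Utx-cKO and 5889.5 CPM in WT, under 1.5-fold. Upper follicle keratinocytes had a log2 ratio of -0.87 and lipid-rich cells -0.71. Igfbp3 stood highest in the cells in none of the sets, and there in the other direction. These had 18783 CPM in Utx-cKO and 13972 CPM in WT (0.43, 0.40 to 0.46). In members the log2 ratio ranged from -2.60 to -1.62 over the 24 alternatives run, and was at least 1.5-fold in each.

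Genes of the basal layer and its anchorage were lower in Utx-cKO members as a group. Of 8 compared, 6 were at least 1.5 times lower, against 12.2% of all 271 genes, and 0 higher, against 8.86%. The median log2 ratio was -0.70, against -0.02 over all genes. Dst had 3680.1, 7091, 7420.4 and 5339 CPM in the 4 Utx-cKO strips, against 12802, 13606, 19497 and 7491 CPM in the 4 WT strips. The Utx-cKO strips lay below the WT strips, the nearest values being 7420.4 and 7491 CPM, and the pooled log2 ratio was -1.24 (-1.33 to -1.15). Krt15 had 11919, 9945, 28713 and 12696 CPM in the 4 Utx-cKO strips, against 27349, 36159, 41513 and 20612 CPM in the 4 WT strips. Krt15, a keratin of basal cells, overlapped, since Utx-cKO strip 3 lay above WT strips 1 and 4, with a log2 ratio of -1.04 (-1.09 to -0.98) over all members and -1.64 without Utx-cKO strip 3. Krt5 had 6756, 21696, 13313 and 8874 CPM in the 4 Utx-cKO strips, against 25910.3, 29298, 20082 and 14982 CPM in the 4 WT strips, a log2 ratio of -0.69 (-0.75 to -0.63) with overlap between strips. Itga6, the integrin of hemidesmosomes (-0.72, -0.84 to -0.59), and Lamb3, a chain of the basement membrane laminin (-0.97, -1.27 to -0.67), had all Utx-cKO strips below all WT strips. Itgb1 had -0.61 (-0.85 to -0.37), and Col17a1 (-0.50) and Trp63 (-0.48), the transcription factor of basal cells, were under 1.5-fold.

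In basal keratinocytes themselves these genes were near level, with 30576 CPM in Utx-cKO and 33162 CPM in WT for Dst, 78312 CPM in Utx-cKO and 79382 CPM in WT for Krt15 and 57676 CPM in Utx-cKO and 53437 CPM in WT for Krt5, the basal set being chosen by these genes. Among members over 20 µm from the nearest basal keratinocyte, 134 in Utx-cKO and 91 in WT, the list had a median of -1.29, Dst -2.02 and Krt15 -2.19. Where markers had to make up at least 10% of transcripts, the list had a median of -0.45 and Krt15 -0.58, both under 1.5-fold. Of the nearest cells of a member, 34.6% in Utx-cKO and 39.1% in WT were basal, and the part of neighbours and of the lower marker sum in these results, Igfbp3 included, was not tested.

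Among the other lower genes, Dsg3 had 920.1 CPM in Utx-cKO members and 2282 CPM in WT members (-1.31, -1.54 to -1.08, and -0.30 with markers at 10%) and Htra1, a secreted serine protease, 406 CPM in Utx-cKO members and 1024 CPM in WT members (-1.33, -1.69 to -0.99), each with all Utx-cKO strips below all WT strips. Srd5a1, a steroid reductase, had -1.08 (-1.58 to -0.61) with strips apart too, and -0.52, under 1.5-fold, by transcripts over the nucleus alone. Tgfbi, a matrix protein bound by integrins, had 3342 CPM in Utx-cKO members and 7004 CPM in WT members (-1.07, -1.19 to -0.95). Tgm3, a transglutaminase of hair and epidermis, rested on 1 strip. Tgm3 had 109.9, 89.6, 409 and 154 CPM in the 4 Utx-cKO strips, against 79.3, 78.7, 1856 and 294 CPM in the 4 WT strips. Its pooled log2 ratio was -1.94 (-2.42 to -1.49), and 1.04 without WT strip 3, the other direction. The collagens Col5a2 (-1.26, -1.99 to -0.59) and Col6a2 (-1.04, -1.46 to -0.64) likewise had 0.08 and 0.37 without that strip, and -0.03 and 0.16 with markers at 10% of transcripts. Rgcc, a regulator of the cell cycle (-1.24, -1.80 to -0.71), had -0.51 without it and -2.00 without Utx-cKO strip 3. Snai2, a transcription factor of undifferentiated keratinocytes, had -0.98 (-1.48 to -0.51), from 50 counts in Utx-cKO and 139 in WT members. Its ratio was -0.17 both with markers at 10% and over 20 µm from a basal keratinocyte. The latter subset held 134 Utx-cKO and 91 WT members, too few to settle the ratio of a gene with so few counts.

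Lor, which marks the layer, was near level, and the other envelope genes compared lay on both sides of 0. Of 6 cornified envelope and keratohyalin genes compared, of 10 on the panel, 1 was higher and 0 lower, against 8.86% and 12.2% of all 271 genes. The median log2 ratio was 0.17, and -0.05 as mean counts per cell. Lor had 21092, 26406, 19942 and 21723 CPM in Utx-cKO and 26907, 22068, 17776 and 25899.6 CPM in WT strips, which overlapped, with a log2 ratio of 0.05. Hrnr had -0.13 (-0.20 to -0.06) and Casp14, the caspase of cornification, -0.06 (-0.23 to 0.11). The higher gene was Asprv1 (0.59, 0.50 to 0.67), and Ivl, which encodes involucrin, had 0.57 (0.44 to 0.70), under 1.5-fold. Cdsn, the corneodesmosin that holds corneocytes together, had all Utx-cKO strips above all WT strips at a log2 ratio of 0.29 (0.23 to 0.35).

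Of 11 barrier lipid genes compared, of 16 on the panel, 0 were at least 1.5 times apart (median 0.11). Of all 271 genes, 8.86% were higher and 12.2% lower. Abca12 had the highest ratio, with 10107, 6874, 7584 and 8432 CPM in Utx-cKO and 6310.5, 4225, 5086 and 6756 CPM in WT strips, all Utx-cKO strips above all WT strips (0.54, 0.44 to 0.64). Ugcg had 0.41 (0.29 to 0.54), the elongase Elovl1 0.39 (0.21 to 0.56) and the thioesterase Them5 -0.32 (-0.44 to -0.20). Of 8 spinous genes 1 was higher, Krt1, and 0 lower (median 0.24), against the same shares of all genes. The calmodulin-like Calm4 had 0.40 (0.35 to 0.45) and the Notch target Hes1 0.58 (0.36 to 0.80). Of 8 transcription factors of the epidermis 0 were apart (median -0.04), although Grhl3, a grainyhead factor of barrier formation, had 2746, 2880.0, 3110.0 and 3035 CPM in Utx-cKO and 1971, 1719, 2282 and 2056 CPM in WT strips, all Utx-cKO strips above (0.55, 0.39 to 0.71).

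Upper follicle and duct genes had 3 of 3 compared higher, against 8.86% of all 271 genes, and 0 lower (median 0.69). They were Pglyrp3, Krt79 (0.69, 0.53 to 0.86) and Krt17 (0.68, 0.60 to 0.75), which are among the genes that chose the upper follicle set. That set held 3039 cells in Utx-cKO and 1556 in WT. Its nearest cell lay a median of 45.0 µm from Utx-cKO members and 59.2 µm from WT members. Strip medians overlapped, from 37.8 to 84.3 µm in Utx-cKO and from 42.1 to 82.5 µm in WT. In members over 50 µm from an upper follicle keratinocyte the list had a median of 0.58, and the part of these neighbours was not tested. In the cells in none of the sets, Krt17 had 2657.4 CPM in Utx-cKO and 1072.8 CPM in WT, and Krt79 1920.8 and 677.1 CPM. Pglyrp3 had 158.6 and 131.6 CPM there, under 1.5-fold. In spinous keratinocytes Krt79 was near level, at 560.9 CPM in Utx-cKO and 565.8 CPM in WT. Cell cycle genes had 0 of 5 higher and 2 lower (median -0.52), against 8.86% and 12.2% of all 271 genes. The 2 lower were Ccnd1 (-0.66, -0.96 to -0.36) and Cdk1 (-0.63, -1.18 to -0.11). Growth factor and matrix genes had 3 of 9 higher and 3 lower (median -0.14), against the same shares. The higher ones were Postn, Tnc and Mmp2 (0.68, 0.23 to 1.14), and the lower ones Igfbp3, Htra1 and Igfbp5 (-0.65, -1.19 to -0.12).

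In the lists that follow, counts stand against 8.86% higher and 12.2% lower of all 271 genes. The 4 glycolysis and hypoxia genes compared were all above 0 and under 1.5-fold (median 0.47), with Ndufa4l2 at 0.54 (0.39 to 0.68). Stress keratins and alarmins split, with 1 of 4 higher (Krt17) and 1 lower (Il33, an alarmin of the interleukin-1 family, -0.91, -1.24 to -0.60, all Utx-cKO strips below all WT strips). Interferon and chemokine genes had 1 of 4 higher, Ccl20, and 0 lower (median 0.33), and gasdermin and inflammasome genes 1 of 3 higher, Gsdmc, and 0 lower (0.24). Desmosome and junction genes had 0 of 6 higher and 1 lower, Dsg3 (-0.03), and transglutaminases and proteases 0 of 2 higher and 1 lower, Tgm3 (-0.91, and 0.67 without WT strip 3). None was past 1.5-fold among 7 chromatin regulators (-0.08), 5 lipogenesis genes (-0.11), 3 clade B serpins (0.28), 2 prostaglandin genes (0.05) and 1 water channel, Aqp3 (0.21).

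**Figure D4:**
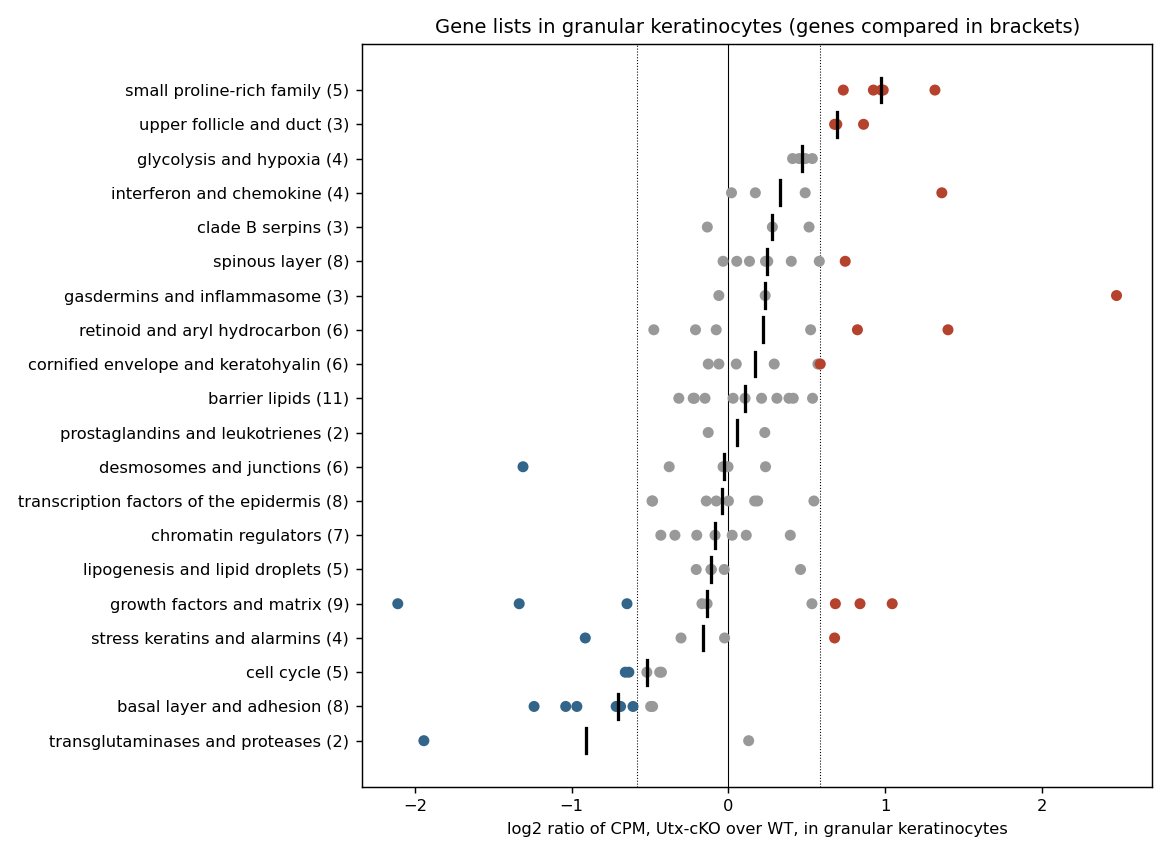
Each point is a gene of a list, placed by its log2 ratio of CPM in granular keratinocytes, Utx-cKO over WT, and thick bars are list medians, with the number of genes compared in brackets. Dotted lines mark 1.5-fold, red points lie above and blue points below it, and small proline-rich genes (median 0.98) and basal genes (median -0.70) lie on opposite sides.

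Granular keratinocytes made up 5.20% (4.98 to 5.43) of cells with at least 20 transcripts in Utx-cKO and 7.03% (6.76 to 7.31) in WT, with exact Clopper-Pearson intervals, a ratio of 0.740. Strips had 3.71%, 7.98%, 4.73% and 4.75% in Utx-cKO and 9.64%, 5.01%, 7.69% and 5.47% in WT, and overlapped. The rule counts transcripts, so it depends on depth. With cells thinned to 40 transcripts the shares were 2.55% in Utx-cKO (595 of 23366 cells) and 2.55% in WT (623 of 24418), a ratio of 0.998. Only cells of at least 40 transcripts entered, and before thinning these had 7.87% and 9.23%, a ratio of 0.853. Thinned to 20, the shares of all cells with at least 20 transcripts were 0.409% and 0.514%, a ratio of 0.796. Of the cells in the keratinocyte and lipid-rich sets, members made up 12.1% in Utx-cKO and 17.3% in WT, a ratio of 0.702. The part of depth in the difference was not tested. Along the tissue, members numbered 45.5, 80.9, 91.3 and 60.5 per mm in the Utx-cKO strips and 90.2, 61.4, 128 and 39.7 per mm in the WT strips.

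Measures that the rule did not use described shape and place. Nuclei of members were elongated, with a median ratio of long to short axis of 1.89 in Utx-cKO and 1.81 in WT, against 1.65 and 1.66 in basal and 1.91 and 1.89 in spinous keratinocytes. Strip medians were 2.06, 1.89, 1.86 and 1.82 in Utx-cKO and 1.88, 1.73, 1.77 and 1.95 in WT, so they overlapped. A ratio of at least 2 occurred in 45.1% of Utx-cKO and 38.4% of WT members. Median nucleus areas were 21.5 and 22.4 µm2, and median cell areas 93.8 and 90.8 µm2, larger than in basal keratinocytes of either section (54.8 and 54.7 µm2).

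Members lay a median of 9.86 µm from the nearest basal keratinocyte in Utx-cKO and 9.07 µm in WT, with strip medians from 8.87 to 10.9 µm in Utx-cKO and from 8.67 to 9.91 µm in WT. More than 20 µm away were 6.89% and 3.89% of members. Of the 10 nearest cells of a member, 16.9% in Utx-cKO and 9.20% in WT were spinous, 34.6% and 39.1% basal, and 5.87% and 3.92% upper follicle keratinocytes. Spinous neighbours ranged over strips from 8.73% to 26.5% in Utx-cKO and from 3.89% to 21.7% in WT, which overlapped. The strips with the most spinous neighbours were those with the shallowest members, Utx-cKO strip 1 and WT strip 4.

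**Figure D5:**
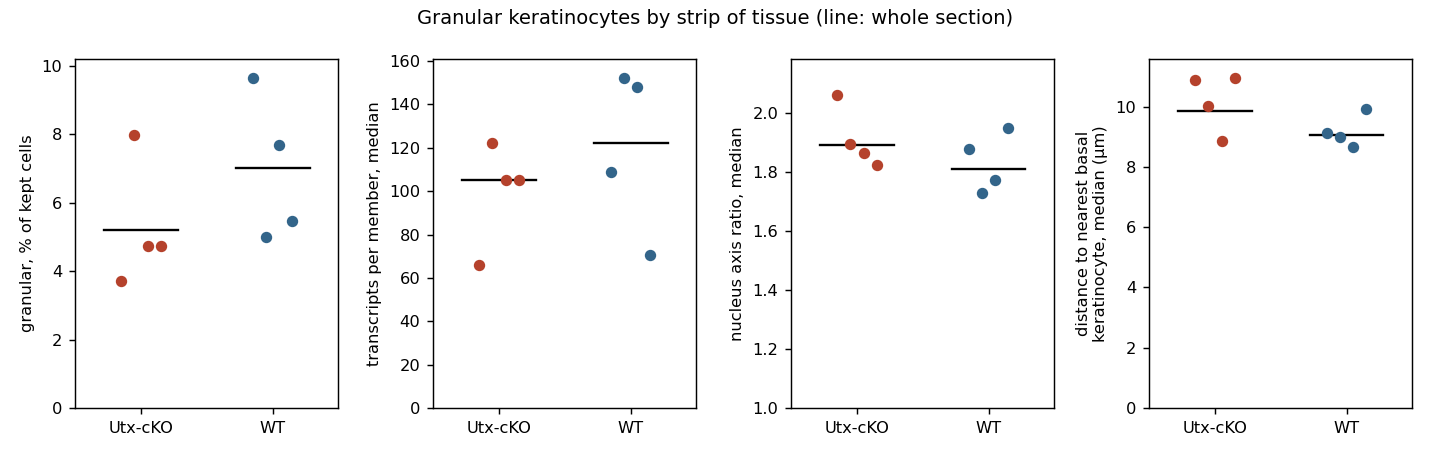
Points are the 4 strips of the Utx-cKO section (left) and the WT section (right), and lines the whole section, for the share of kept cells that were granular, the median transcripts per member, the median nucleus axis ratio (axis starts at 1) and the median distance to the nearest basal keratinocyte. Strips of the sections overlap in all 4 panels, with shares from 3.71% to 7.98% in Utx-cKO and from 5.01% to 9.64% in WT.

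Dead cornified cells have no nucleus and may not be outlined, so transcripts outside cells were counted over each whole section. Of the 5 markers, Lce1m lay above the median gene in both sections, and Hal, Alox12b and Sdr9c7 below it in both. For Sdr9c7 the values in Utx-cKO were almost equal (7.345% against 7.350%). Flg2 had 8.85% in Utx-cKO and 8.79% in WT of its transcripts outside cells, Hal 5.97% in Utx-cKO and 6.06% in WT, Lce1m 13.5% in Utx-cKO and 13.0% in WT, Sdr9c7 7.35% in Utx-cKO and 8.16% in WT and Alox12b 6.12% in Utx-cKO and 8.99% in WT, against a median gene at 7.35% in Utx-cKO and 10.8% in WT. Over all genes together 15.1% of transcripts in Utx-cKO and 25.3% in WT lay outside. The 5 genes with the highest share, taking the smaller of the 2 sections, were Uty (54.7% in Utx-cKO and 67.1% in WT, from 170 and 161 transcripts of a Y-linked gene in female skin), Ldha (50.1% in Utx-cKO and 63.7% in WT), Cryab (47.8% in Utx-cKO and 57.1% in WT), Tpi1 (46.8% in Utx-cKO and 59.4% in WT) and Mef2c (44.4% in Utx-cKO and 59.2% in WT).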

How the data were processed

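Xenium data of 2 mouse skin sections, 1 Utx-cKO and 1 WT, were used. The deposited cell tables hold counts of transcripts per segmented cell with areas and positions, and the deposited transcript tables list transcripts with gene, place, cell and the authors' quality score, up to 40. In every cell the deposited counts equalled the gene transcripts that scored 20 or more. The sources used here do not name the software of decoding and segmentation. Nucleus outlines gave the axis ratio.

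Members, comparison sets and 21 gene lists were chosen with earlier results of these data known. Counts were summed over members and divided by the total over panel genes (CPM). Utx-cKO was set over WT on the log2 scale, for genes with at least 100 counts over both sections. A ratio of 1.5 between sections, or 2 in both sections between sets or marker bins, is a rule of size. For ratios between sets or bins, 0.5 counts were added. Intervals are exact 95% Poisson, conditional binomial or Clopper-Pearson intervals, for counting error only. No doublet caller was run. Comparison sets were taken in this order: lipid-rich cells (at least 5 transcripts of the lipid genes), granular, upper follicle (at least 5 of Krt79, Krt17, Gata6 and Pglyrp3), spinous, and basal keratinocytes (at least 5 of Krt5, Krt15, Col17a1, Itga6 and Dst). Strips are groups of cells linked within 75 µm, with at least 1000 cells.

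Named genes are the 12 highest and 12 lowest between sections, the 10 highest and 6 lowest against spinous keratinocytes (none was low enough), the 8 highest and 8 lowest with marker count, the 4 largest of each list, the genes of the rule, Kdm6a, Kdm6b and Kmt2a, and for shares outside cells the markers and the 5 highest. Other genes are named to complete a list, and 1 gene and the counts of its list are not reported here. The ratios and intervals were run on simulated counts that held counting error alone. Spread among cells, strips or animals was not simulated, so that run does not bear on it. Alternatives changed the quality score (30), cell minimum (10 or 40 transcripts), marker minimum (3 or 8), marker share, lipid limit, scale, depth, gene minimum (50) and strips. Members over 20 µm from a basal and over 50 µm from an upper follicle keratinocyte were added after seeing the data. Python 3.11.15, numpy 2.4.6, scipy 1.17.1 and pandas 2.3.3 were used.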

Additional observations from a re-analysis of the deposited data

How the results depend on the processing

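The 24 higher and 33 lower genes became 9 and 10 where markers had to make up at least 10% of transcripts, 12 and 62 as mean counts per cell, 10 and 10 with members thinned to 20 transcripts (137 genes compared), 14 and 56 without Utx-cKO strip 3, and 11 and 9 in members over 20 µm from a basal keratinocyte (46 genes compared). A gene minimum of 50 counts gave 47 higher genes. Without each strip in turn, higher genes ranged from 14 to 29 and lower genes from 22 to 56. As mean counts per cell, 16.2% of the genes past 1.5-fold were higher, against 42.1% as CPM, and the median log2 ratio was -0.25. The same share was 56.9% without WT strip 3, 20% without Utx-cKO strip 3, 53.4% at the gene minimum of 50 and 55.0% in members over 20 µm from a basal keratinocyte. The ratio of shares of 0.740 was 0.693 at a score of 30, 0.676 and 0.853 with cell minimums of 10 and 40 transcripts, 0.789 with at least 3 marker transcripts, 0.886 with markers at 10%, and 0.998 and 0.796 with cells thinned to 40 and 20 transcripts. Without each strip it ranged from 0.640 to 0.836, with 0.786 without Utx-cKO strip 1 and 0.661 without WT strip 2. The 10 genes higher than in spinous keratinocytes became 19 at a fold of 1.5 and 1 at a fold of 3. The difference in median nucleus axis ratio (0.081) kept its sign with cells of at least 40 transcripts and with at least 8 markers. Of the log2 ratios past 1.5-fold, those that turned to the other direction were Postn (-0.055 with markers at 10%, -0.036 without Utx-cKO strip 2), Sprr2b (-0.10 with markers at 10%), Tgm3 (1.04), Col5a2 (0.075) and Col6a2 (0.37) without WT strip 3, Col6a2 (0.16) with markers at 10%, and the median of transglutaminases and proteases (0.67) without WT strip 3. Of values under 1.5-fold, 43 medians of 11 lists and 8 values of Kdm6a took the other sign under some alternative, the median of growth factors and matrix reaching 0.83 over 20 µm from a basal keratinocyte. The cause was not tested. Depth limits genes of few counts: at 20 transcripts per member 137 genes could be compared. No paired analysis was possible because there was 1 section per group.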
